A study of Rattus norvegicus with 8 samples.

Results

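The comparison described here set the proximal stump of a cut sciatic nerve against the uncut nerve of the opposite leg, 1 day after the cut, on 2 of the 8 microarrays of a rat study. The left sciatic nerve of adult female Sprague-Dawley rats weighing 200 to 225 g was transected at mid-thigh, and the stump on the side of the spinal cord was collected as the proximal nerve. The right sciatic nerve, whose label calls it the control and also names a site of PBS injection, was the contralateral nerve. Each RNA was a pool of 3 animals and each pool was hybridised to 1 array, so there is no replicate of either side and no p-value. The distal stump of the same leg, also at day 1 and also a pool of 3 animals, is given beside the values as the nearest other sample. All 3 nerve samples came from operated animals, and no nerve of an unoperated rat is among the 8 groups. The other arrays hold 2 spinal cord samples from day 5 and 3 samples of cultured Schwann cells. The samples were identified by the headings of the deposited log2 value table. For 7 of the 8 columns, the scan whose values match is recorded under another sample, and every direction below rests on the headings.

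A peripheral nerve holds axons whose cell bodies lie elsewhere, wrapped by Schwann cells, and around them fibroblasts, the perineurial sheath, blood vessels and fat. After a cut, axons in the distal stump degenerate, while those in the proximal stump stay joined to their cell bodies and regrow. In both stumps, Schwann cells near the cut leave the myelinating state, blood-borne neutrophils and monocytes enter, and resident cells divide. The messenger RNA in a nerve is mostly that of these non-neuronal cells.

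The table holds 24894 probes, of which 15213 were matched through their accession to 12765 rat gene symbols of RefSeq, and 1 probe with the highest mean was kept for each gene. A ratio is the log2 value of the proximal nerve minus that of the contralateral nerve, so that 1 is a 2-fold and 3 an 8-fold higher value. The ± after a ratio is the technical error from repeat spots of a probe on the array and holds no spread between animals. Nor does it hold differences between probes of the same gene. Of 402 genes past 2-fold with several probes measured, muscle genes aside, 24 had probes of opposite sign. Where a probe was not well above background on 1 side, the ratio is a limit and is written "at least" or "at most". Below, a value given for a gene without the word level or the name of a nerve is this log2 ratio. Genes well above background on at least 1 side are called measured, which left 12068 of the 12765. Because these are values of whole tissue, fewer cells of a type and less RNA per cell cannot be told apart. All 9 Schwann cell markers were well above background on all 3 nerve arrays, with a median log2 level of 12.47 in the proximal, 11.89 in the distal and 13.96 in the contralateral nerve. The markers of neuronal cell bodies had a median of 4.72, 4.69 and 5.53 in the same order, against 12.45 to 13.77 in the spinal cord, and the synaptic vesicle gene Syt1 was not well above background in any nerve. The neutrophil markers had a median of 8.79 proximally, 8.84 distally and 5.73 in the contralateral nerve, and the macrophage markers 11.09, 11.64 and 11.08.

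Skeletal muscle genes stood among the largest differences and were set aside. Of 183 listed muscle symbols, 133 were measured; 70 were at least 2-fold higher in the proximal stump and 7 lower, against 10.5% of all measured genes that were higher and 11.7% that were lower. The fast myosin heavy chain Myh4 was at 11.24 in the proximal, 7.01 in the distal and 4.47 in the contralateral nerve, a ratio of 6.77 ± 0.64. The fast troponin C gene Tnnc2 was at 14.26 in the proximal, 11.04 in the distal and 8.64 in the contralateral nerve, with a ratio of 5.62 ± 0.08. The muscle creatine kinase Ckm had a ratio of 4.94 ± 0.17 and the calcium pump Atp2a1 of 5.31 ± 0.09, while the slow myosin Myh7 gave -0.05 ± 0.20. In each of the 4 genes with positive ratios named here the proximal array was highest and the contralateral array lowest. The list had a median ratio of 1.18 in the proximal stump and 0.04 in the distal stump. Of the 10 defining muscle markers, 10 were well above background in the proximal nerve and 9 in each of the others, and their summed level was 15.4 on the log2 scale proximally, 12.5 distally and 11.6 in the contralateral nerve. Muscle lies beside the nerve at mid-thigh, and the part of adjoining tissue in the remaining results was not tested. The list does not hold every gene of muscle: Apobec2, Rbfox1 and Scn4b, which muscle also expresses, stayed in and had ratios of 3.30 ± 0.41, 3.13 ± 0.64 and 2.46 ± 0.20.

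**Figure D1:**
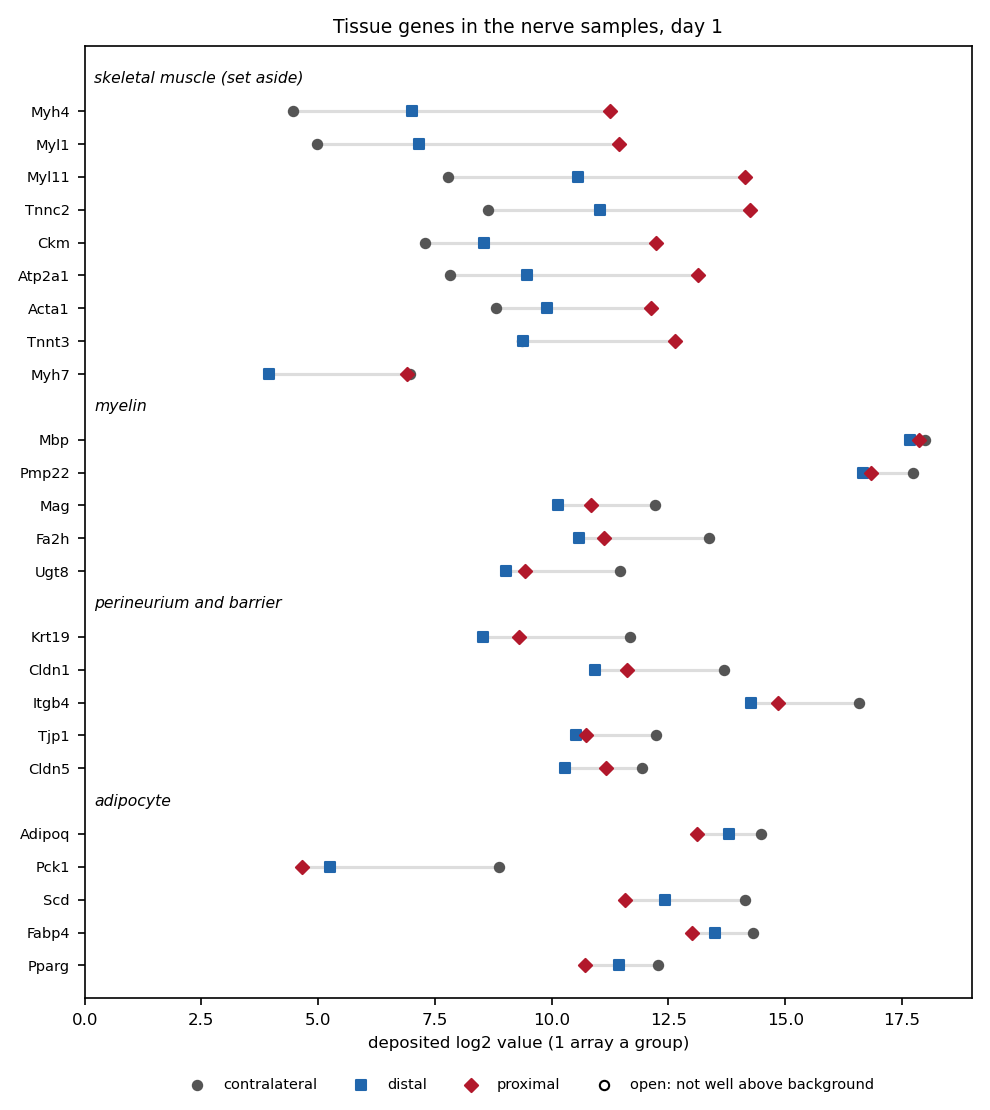
Log2 levels of tissue genes in the proximal, distal and contralateral nerve, 1 array each, for fast and slow muscle, myelin, the perineurial and vascular barrier, and fat. Open symbols were not well above background. The fast muscle genes are highest in the proximal nerve, while the myelin, barrier and fat genes are highest in the contralateral nerve.

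With muscle genes aside, 11935 genes were measured. Of these, 1201 (10.1%) were at least 2-fold higher in the proximal stump and 1401 (11.7%) at least 2-fold lower. These shares are the background for the counts of each gene group below. A 4-fold difference was passed by 333 genes on the higher side and 272 on the lower side, and an 8-fold difference by 132 and 48. The median over all of them was -0.02. Limits made up 214 of the 1201 higher and 110 of the 1401 lower genes, and for 300 measured genes no fold could be given. The distal stump, set against the same contralateral array, had 1498 of 11825 genes (12.7%) past 2-fold upward and 1667 (14.1%) downward. Both stumps share that 1 contralateral array, so a ratio in 1 stump is not independent of the ratio in the other. Proximal and distal stumps were set against each other directly as well: 137 of 11930 genes (1.15%) were at least 2-fold higher proximally and 131 (1.1%) lower. These counts depend on the normalization: with normexp and quantile normalization of the scans they were 43 and 26, against 770 and 781 for the proximal stump over the contralateral nerve, and scaling to the 75th percentile left 80 genes lower proximally than distally. The groups with the highest medians were inflammatory or belonged to cell division, and those with the lowest were secreted ribonucleases, fat, myelin proteins and the perineurial barrier.

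**Figure D2:**
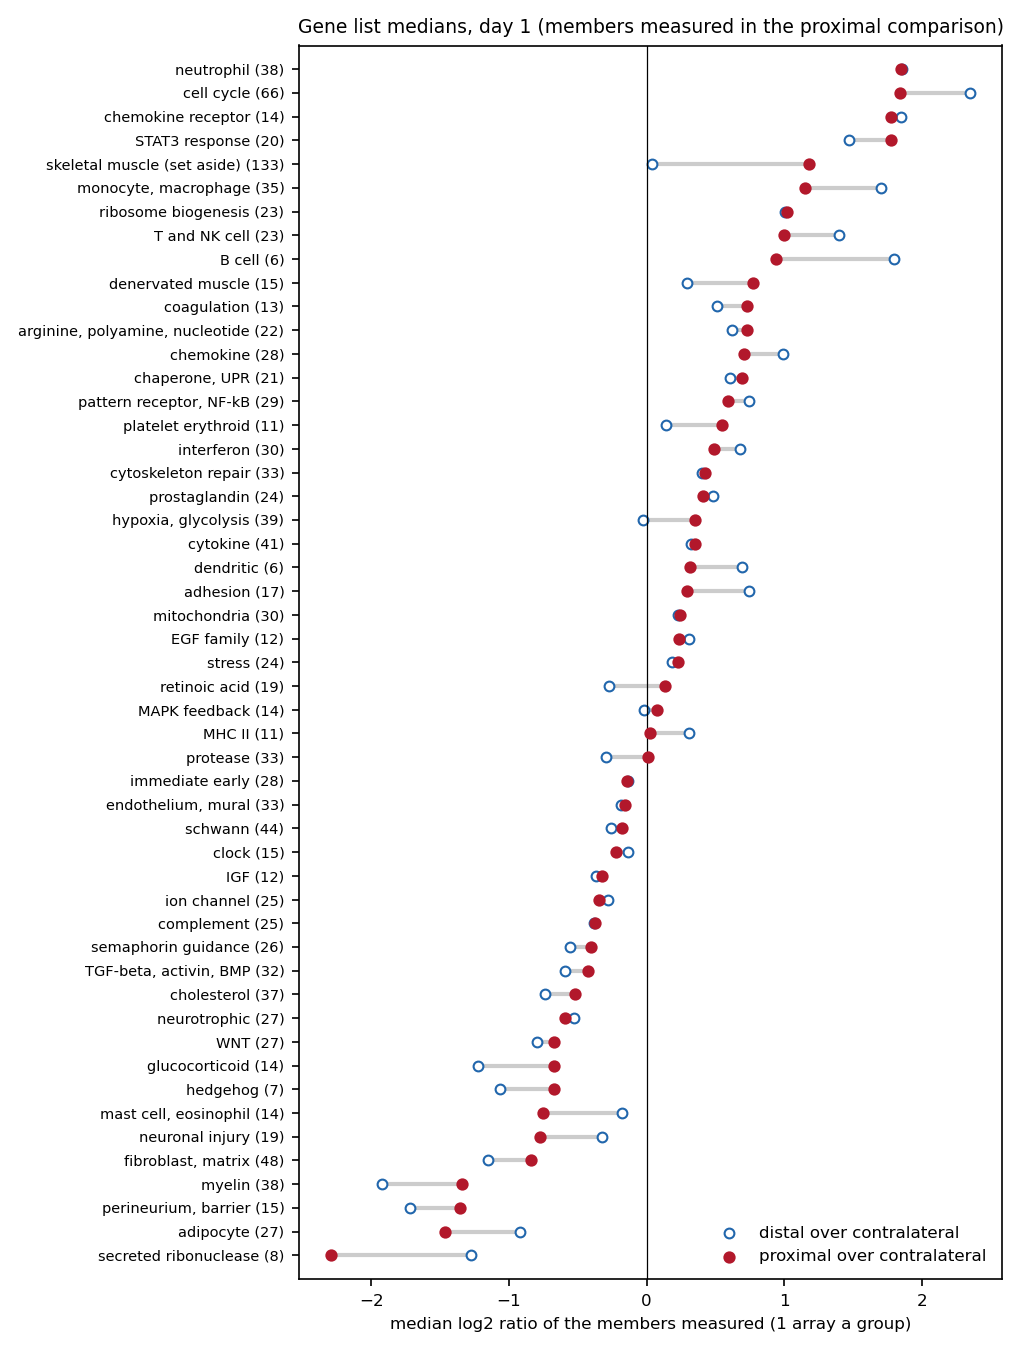
Median log2 ratio to the contralateral nerve of each gene group, filled red for the proximal and open blue for the distal stump, with the number of members measured proximally in brackets. The neutrophil, cell division, STAT3 response and chemokine receptor groups have the highest proximal medians, from 1.775 to 1.853. The secreted ribonucleases have the lowest, at -2.29.

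The pair of calcium-binding alarmins S100a8 and S100a9, which neutrophils carry as a heterodimer in large amounts, gave the leading values. S100a8 was at 13.61 in the proximal, 13.06 in the distal and 5.73 in the contralateral nerve, and its ratio of 7.89 ± 0.41 was the largest that was not a limit, on the 1 probe kept for each gene. S100a9 was at 13.63 in the proximal, 13.32 in the distal and 7.13 in the contralateral nerve, a ratio of 6.50 ± 0.17. Both injured stumps were high and the contralateral nerve low, and the stumps differed by 0.56 for S100a8 and 0.31 for S100a9. Of the 38 neutrophil genes measured out of 53 listed, 27 were at least 2-fold higher in the proximal stump and 0 lower, with a median of 1.85. Among surface receptors, the ratio was 6.18 ± 0.64 for the lectin-like oxidised LDL receptor Olr1, 4.20 ± 0.64 for the chemokine receptor Cxcr2 and 3.57 ± 0.41 for the receptor of granulocyte colony-stimulating factor Csf3r. Olr1 is not confined to neutrophils. Its level was 6.53 in cultured unstimulated Schwann cells, against 4.31 in the contralateral nerve, while that of Cxcr2 was 2.64 in the same cultured cells. The innate triggering receptor Trem1 had 2.65 ± 0.24 and the integrin chain Itgam 2.12 ± 0.10. Granule proteins had a median ratio of 1.5, against 2.12 for surface proteins. Mmp9, the enzyme of gelatinase granules, had a ratio of at least 3.64, the peptidoglycan-binding Pglyrp1 2.15 ± 0.08 and the cathelicidin Camp 1.86 ± 0.41. Lcn2, a siderophore-binding granule and acute-phase protein, was 0.57 ± 0.08. Genes that neutrophil precursors express in bone marrow were near or below the measurable range: Elane gave -0.88 ± 0.70, Prtn3 at least 0.11 and Mmp8 at least 0.17, and Ngp and Np4 were not well above background on either side.

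Retnlg, a resistin-like protein of myeloid cells, differed between the stumps. It was at 11.74 in the proximal, 14.35 in the distal and 10.64 in the contralateral nerve, so that its ratio was 1.10 ± 0.08 proximally and 3.71 distally, and the direct proximal over distal ratio was -2.60 ± 0.06.

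The chemokines, secreted proteins that draw leukocytes along a gradient, were led by those that act on neutrophils. A kappaB-type sequence (3 G, any 2 bases, 3 T and 2 C) was searched on either strand within 250 bases before the gene start. Other forms of the kappaB site were not searched. Among the 27457 genes of the RefSeq promoter table (rat build GRCr8), 351 (1.28%) hold the searched letters. Of the neutrophil-attracting CXC genes 3 of 4 do, namely Cxcl1, Cxcl2 and Cxcl6. The kappaB site is the element that NF-kB dimers bind. The 150 bases before the start are printed for the cytokine genes with the highest ratios that hold such a match, with the match in capitals. Cxcl1 lies at chr14:17479322-17479471, reverse strand, Cxcl2 at chr14:17467256-17467405, reverse strand, Ccl20 at chr9:91837009-91837158, forward strand, Il6 at chr4:5894576-5894725, reverse strand and Il1rn at chr3:27520172-27520321, forward strand.
Cxcl1: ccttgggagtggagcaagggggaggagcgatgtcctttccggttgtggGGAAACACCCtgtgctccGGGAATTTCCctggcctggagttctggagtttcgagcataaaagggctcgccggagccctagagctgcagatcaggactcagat
Cxcl2: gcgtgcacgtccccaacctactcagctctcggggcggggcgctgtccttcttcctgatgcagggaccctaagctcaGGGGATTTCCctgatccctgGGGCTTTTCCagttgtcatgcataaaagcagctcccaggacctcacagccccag
Ccl20: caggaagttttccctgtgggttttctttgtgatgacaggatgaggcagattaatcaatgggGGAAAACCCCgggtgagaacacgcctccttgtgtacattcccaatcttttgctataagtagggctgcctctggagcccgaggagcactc
Il6: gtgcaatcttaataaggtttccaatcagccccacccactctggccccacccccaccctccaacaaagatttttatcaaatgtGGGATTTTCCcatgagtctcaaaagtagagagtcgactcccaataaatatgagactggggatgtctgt
Il1rn: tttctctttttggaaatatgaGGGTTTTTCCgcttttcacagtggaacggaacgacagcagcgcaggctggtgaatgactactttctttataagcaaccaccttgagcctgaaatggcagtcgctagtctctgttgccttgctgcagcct
The searched letters begin 102 and 84 bases before the start in Cxcl1 and 74 and 54 in Cxcl2, where the matches lie close together. They begin 89 bases before it in Ccl20, 68 in Il6 and 129 in Il1rn. The same letters were in 2 of 11 CC chemokine promoters (18.2%), 1 of 11 of the IL-1 group (9.09%) and 1 of 8 of the IL-6 group (12.5%). A match is a description of the letters and does not show binding.

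Cxcl2, which recruits neutrophils through Cxcr2, was at 12.92 in the proximal, 10.68 in the distal and 6.61 in the contralateral nerve. Its ratio was 6.31 ± 0.17 proximally and 4.07 distally, and the proximal stump exceeded the distal stump by 2.23 ± 0.06. Cxcl1, the other main rat ligand of Cxcr2, was at 12.43 in the proximal, 11.26 in the distal and 7.43 in the contralateral nerve, with ratios of 5.0 ± 0.04 proximally and 3.83 distally. For both genes the order was proximal, distal, contralateral. Cxcl6 reached a ratio of at least 1.54. Among the CC chemokines, 7 of 16 measured passed 2-fold upward and 0 downward. Ccl20, the ligand of Ccr6 on lymphocytes and dendritic cells, was at 9.79 in the proximal, 8.80 in the distal and 3.05 (not well above background) in the contralateral nerve, a ratio of at least 5.91. The monocyte attractants Ccl2 and Ccl7 were at 15.58 in the proximal, 15.29 in the distal and 11.13 in the contralateral nerve, and at 14.07 in the proximal, 13.83 in the distal and 10.26 in the contralateral nerve, with ratios of 4.45 ± 0.03 and 3.80 ± 0.08. These stumps were close to each other, at 0.29 and 0.24. Ccl3 had a ratio of 2.52 ± 0.04, and Ccl12 2.36 ± 0.17, with the distal stump higher than the proximal for both (-0.64 and -0.99). Eosinophil and T cell attractants differed less: 0.88 for Ccl11, -0.34 for Ccl24, 0.19 for Ccl5 and 0.06 for Ccl22. Cxcl14, a chemokine of epithelia and fibroblasts, had 2.81 ± 0.07, while the membrane-tethered Cx3cl1 was lower at -1.45 ± 0.08 and the homeostatic Cxcl12 was 0.02. Of the receptors, 8 of 14 measured were at least 2-fold higher, among them Ccr6 (2.72), Cxcr4 (2.47), Ccr2 (2.0) and Ccr1 (1.77). The scavenging receptors Ackr3 and Ackr2 gave -0.12 and -0.95.

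In the IL-1 group, both the cytokine and its brakes were high. Il1b, which signals through the IL-1 receptor, was at 11.88 in the proximal, 11.33 in the distal and 8.12 in the contralateral nerve, a ratio of 3.76 ± 0.04. Il1rn, the secreted antagonist that occupies the same receptor, was at 12.95 in the proximal, 12.29 in the distal and 7.78 in the contralateral nerve, a ratio of 5.18 ± 0.09. Il1r2, the decoy receptor without a signalling domain, was at 11.12 in the proximal, 9.38 in the distal and 6.26 in the contralateral nerve, a ratio of 4.86 ± 0.17, and was 1.74 ± 0.06 above the distal stump. Il1rl1, the receptor of IL-33, had 4.82 ± 0.41 on the probe used and -0.02 on a second probe of the gene, so its ratio depends on the probe. Its ligand Il33 was 0.05 ± 0.07. The inflammasome sensor Nlrp3 had 2.04 ± 0.19, Il18 2.02 ± 0.08, Il1a 1.73 ± 0.29, and the accessory receptor chain Il1rap -0.80 ± 0.62.

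The IL-6 family, whose members share the receptor chain gp130 and signal through STAT3, was split, with 5 of 13 measured genes past 2-fold upward and 4 downward. Il6 was at 10.34 in the proximal, 8.44 in the distal and 1.73 (not well above background) in the contralateral nerve, a ratio of at least 6.47 proximally and at least 4.56 distally, and 1.90 ± 0.05 between the stumps. Oncostatin M, Osm, had 1.78 ± 0.18 and its receptor Osmr 1.41 ± 0.66. Il11 had 1.04, and Lif, an injury factor of Schwann cells, 0.10 ± 0.20. The lower members were those of the ciliary neurotrophic factor branch. Cntf, which myelinating Schwann cells store, was at 13.52 in the proximal, 13.06 in the distal and 14.77 in the contralateral nerve, a ratio of -1.25 ± 0.03, its receptor Cntfr had -1.62 ± 0.49 and the leukaemia inhibitory factor receptor Lifr -2.04 ± 0.26. The common chain Il6st was -0.14 ± 0.11. Of 20 genes known to respond to STAT3, 13 were higher by 2-fold or more and 0 lower by as much, with a median of 1.77. The pentraxin Ptx3 was at 12.84 in the proximal, 12.63 in the distal and 6.73 in the contralateral nerve, a ratio of 6.11 ± 0.17. A second probe of Ptx3 gave 4.87. The protease inhibitor Serpina3n had 3.68 ± 0.08, and Timp1, the inhibitor of matrix metalloproteinases, 2.44 ± 0.03. The feedback inhibitor Socs3 had 1.86 ± 0.17, the kinase Pim1 1.88 ± 0.58 and Stat3 itself 0.92 ± 0.11. Gfap, an intermediate filament of non-myelinating Schwann cells, had 1.66 ± 0.08 proximally and 0.45 distally.

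Sensors of damage and microbes were partly higher. Tlr2 had a ratio of 2.94 ± 0.08 and its partner Tlr6 2.53 ± 0.08, against 0.56 ± 0.10 for Tlr4, -0.61 ± 0.08 for Tlr3 and -0.13 ± 0.20 for Ager, the receptor for advanced glycation end products. Tlr4 and Ager are the receptors through which the S100a8 and S100a9 proteins are known to act. Of the 29 genes of this group, 12 passed 2-fold upward and 0 downward. Bcl3 had 1.96 ± 0.04, Birc3 1.89 ± 0.17 and Nfkbie 1.25 ± 0.10, while the inhibitor Nfkbia was -0.58 ± 0.07 and the subunit Rela -0.34 ± 0.08. Tumour necrosis factor, Tnf, had 1.35 ± 0.10, the T cell costimulator Tnfsf9 3.17 ± 0.24 and the anti-inflammatory Il10 2.62 ± 0.41, the last with 3.59 distally. Il34, a ligand of the macrophage growth factor receptor, had -0.72 ± 0.07 and Tnfsf15 -2.25 ± 0.18.

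**Figure D3:**
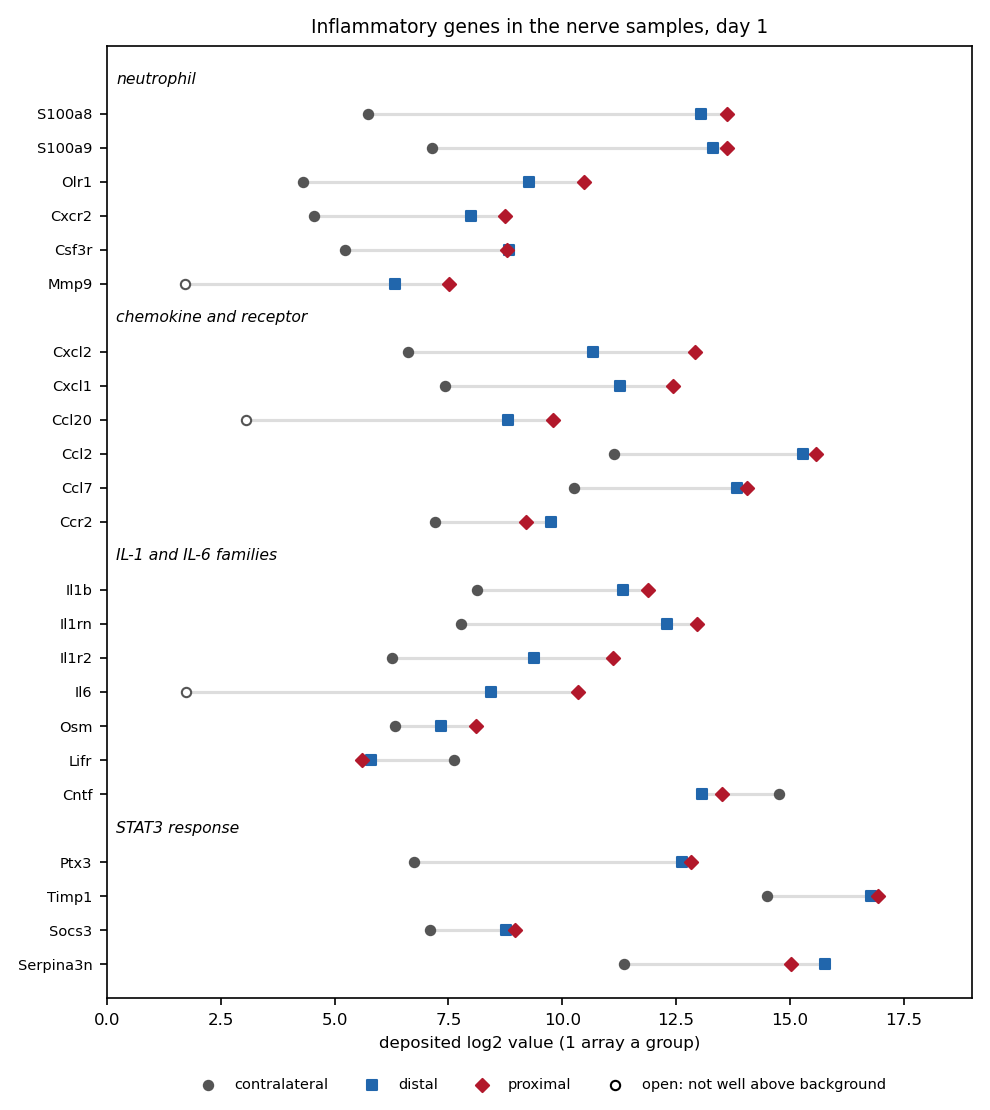
Log2 levels of neutrophil, chemokine, cytokine and acute-phase genes in the proximal, distal and contralateral nerve, 1 array each. Open symbols were not well above background, which holds for contralateral Mmp9, Ccl20 and Il6. The contralateral value is the lowest for each gene shown except Lifr and Cntf, where it is the highest.

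Monocyte and macrophage genes were higher in the proximal stump, and less so than in the distal stump. Of 35 measured, 19 were higher by 2-fold or more and 0 lower by as much, with a median ratio of 1.15 proximally and 1.71 distally. In the direct comparison 29 of 36 lay below 0, with a median of -0.457, against -0.021 over all genes. The scavenger receptor Msr1 had a ratio of 3.33 ± 0.17, the Fc receptor Fcgr1a 2.25 ± 0.07 and the lipopolysaccharide co-receptor Cd14 2.01 ± 0.08. The haemoglobin scavenger Cd163 had 1.70 ± 0.08 proximally and 2.77 distally, and the mannose receptor Mrc1 0.92 ± 0.09 proximally and 1.92 distally. Cx3cr1, Adgre1 and Trem2, which macrophages also express, were not higher, at -0.75 ± 0.08, -0.80 ± 0.08 and 0.03 ± 0.11. Arg1, which degrades arginine and marks wound macrophages and rodent neutrophils, was at 13.17 in the proximal, 11.43 in the distal and 9.81 in the contralateral nerve, a ratio of 3.36 ± 0.04 and 1.74 ± 0.03 over the distal stump.

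Lymphocyte genes ranged widely. Of 23 T and natural killer cell genes, 11 passed 2-fold upward and 1 downward, with a median of 1.0. Cd2 had 3.65 ± 0.64, Cd8a 3.62 ± 0.41 proximally and 4.79 distally, and the T cell receptor chains Cd3d and Cd3g 1.03 and 1.03. Cd4 was -0.83 ± 0.14 and the cytotoxic granule genes Gzmb and Prf1 -1.07 and 0.04. Of the 6 B cell genes, 3 were at least 2-fold higher, led by the adaptor Blnk at 2.27 ± 0.17. Mast cell and eosinophil genes had a negative median of -0.75, with 0 of 14 higher by 2-fold or more and 5 lower by as much. The mast cell protease Cpa3 had -0.88 ± 0.08, Tpsb2 -1.07 ± 0.08 and the high-affinity IgE receptor chain Ms4a2 -1.11 ± 0.14. The eotaxin receptor Ccr3 was at 5.12 in the proximal, 7.55 in the distal and 5.77 in the contralateral nerve, close to the contralateral value in the proximal stump and above both in the distal stump.

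The secreted ribonucleases of the RNase A family were the lowest group. Rnase1, the pancreatic-type enzyme that vessel walls release, was at 7.60 in the proximal, 9.25 in the distal and 12.56 in the contralateral nerve, and its ratio of -4.96 ± 0.10 was the most negative that was not a limit. Its paralog Rnase1l2 was at 5.64 in the proximal, 7.08 in the distal and 10.31 in the contralateral nerve, a ratio of -4.67 ± 0.17. For these the proximal array was the lowest and the contralateral array the highest, and the proximal over distal ratios were -1.65 and -1.44. Rnase2 and Rnase3, the eosinophil-type members, had -2.84 ± 0.06 proximally and -0.73 distally, and -3.12 ± 0.29 proximally and -0.59 distally. The distal stump was thus nearer to the contralateral nerve for both, and the proximal stump was the lowest. Rnase4 had -1.75 ± 0.08 and the angiogenins Ang and Ang2 -1.43 and -1.43. Rnase6, made by monocytes, was the only measured member with a positive ratio, 1.85 ± 0.41 proximally and 3.17 distally. In all 7 of 8 members measured were at least 2-fold lower proximally and 5 of 9 distally. The sequences of these paralogs are close, Ang to Ang2 and Rnase1 to Rnase1l2, so a probe of 1 may also bind the other.

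Of 17 adhesion genes of leukocytes and vessels, 7 (41.2%) passed 2-fold upward and 2 (11.8%) downward, against 10.1% and 11.7% of all genes. Their median was 0.29. P-selectin, Selp, had a ratio of at least 3.18, E-selectin, Sele, 1.51 ± 0.25, and the integrins Itgal and Itgb2 at least 3.17 and 2.28. Icam1 was 0.69 ± 0.04, Vcam1 -0.05 ± 0.04, and the lower ones were the junction proteins Jam2 and Jam3 at -1.20 and -1.10. Of the matrix metalloproteinases, 6 of 17 measured (35.3%) were higher by 2-fold or more and 2 (11.8%) lower by as much. The inducible stromelysin Mmp3 had at least 2.81, the macrophage elastase Mmp12 at least 2.76 and the collagenase Mmp13 at least 1.99, while the constitutive Mmp2 was -0.29 ± 0.11 and Mmp14 -0.65 ± 0.03. Among their inhibitors Timp1 was high, as given above, and Timp3 and Timp4 had -1.45 and -2.0. Genes of the urokinase branch of the plasminogen system were higher: 3.15 ± 0.17 for the urokinase receptor Plaur and 1.45 ± 0.09 for urokinase, Plau, with the tissue activator Plat at 0.13 ± 0.07. Plau differed between stumps, at 0.41 distally. In the clotting group, tissue factor, F3, and thrombomodulin, Thbd, were lower, at -1.23 ± 0.07 and -1.24 ± 0.07, and the matrix protein Thbs1 higher, at at least 3.27.

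Complement genes were mixed. The 3 anaphylatoxin receptors were higher, with 2.45 ± 0.17 for C3ar1, 1.84 ± 0.08 for C5ar1 and at least 2.46 for C5ar2. The alternative-pathway factor Cfb had 1.14 ± 0.07 and C3 0.76 ± 0.09. The C1q chains C1qa, C1qb and C1qc gave -0.97, -0.93 and -0.61, C4a -1.12 ± 0.07 and C6 -1.49 ± 0.08. Over the group, 7 of 25 (28%) passed 2-fold upward and 3 (12%) downward, against 10.1% and 11.7% of all genes. The lower share was thus close to that of all genes.

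Prostaglandin genes diverged, with 6 of 24 past 2-fold upward and 4 downward. Pla2g7, which hydrolyses platelet-activating factor, had 2.55 ± 0.08 and the prostaglandin F receptor Ptgfr 2.16 ± 0.65. The inducible cyclooxygenase Ptgs2 had 1.49 ± 0.42, with 0.49 distally, and the constitutive Ptgs1 -0.27 ± 0.04. Prostacyclin synthase, Ptgis, had 2.04 ± 0.09 and thromboxane synthase, Tbxas1, 1.30 ± 0.08, while the prostaglandin D synthases Ptgds and Hpgds had -2.25 and -1.35 and leukotriene C4 synthase, Ltc4s, -1.89 ± 0.13. The prostaglandin E receptors diverged, at at least 3.54 for Ptger2 and -1.55 ± 0.70 for Ptger3.

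Interferon-response genes had a median of 0.49, with 8 of 30 past 2-fold upward and 1 downward. Ifit3 had 2.38 ± 0.17, Irf8, a regulator of monocyte development, at least 2.85, and Isg15 1.05 ± 0.08, against -0.66 ± 0.07 for Mx2 and -1.04 ± 0.09 for Ifit2. The class II antigen-presentation genes had a median of 0.02. Their master regulator Ciita had 1.32 ± 0.18 and the peptide-loading chains RT1-DMa and RT1-DMb 1.08 and 1.10, while the invariant chain Cd74 was -0.21 ± 0.07 and RT1-Da -0.05 ± 0.07.

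Immediate early genes, which are switched on within minutes of a stimulus, did not share a direction at day 1. Fosl1, an AP-1 subunit, was at 9.96 in the proximal, 10.41 in the distal and 3.94 (not well above background) in the contralateral nerve, a ratio of at least 6.02. Junb had 1.68 ± 0.11 and Fos 1.21 ± 0.10, whereas Jun had -0.54 ± 0.08, Egr1 -0.79 ± 0.08, Atf3 -1.06 ± 0.08 and Arc -2.90 ± 0.06. Jun and Atf3 are known as injury genes of Schwann cells and axotomised neurons, and in these data both were below the contralateral value in the proximal stump (10.93 against 11.47 for Jun, and 10.80 against 11.86 for Atf3). Among stress genes, haem oxygenase Hmox1 had 3.74 ± 0.03, the metallothioneins Mt2A and Mt1 3.26 and 1.52, and the zinc importer Slc39a14 2.85 ± 0.24. The brain-type metallothionein Mt3 had -2.16 ± 0.07 and the extracellular Sod3 -1.44 ± 0.07. In the endoplasmic reticulum, Creld2 had 1.80 ± 0.08 and Pdia4 1.07 ± 0.09, while Ddit3 was -0.37 ± 0.08. Genes of ribosome assembly in the nucleolus were higher as a set, 14 of 23 at least 2-fold and 0 lower, with a median of 1.02 proximally and 1.0 distally. Fibrillarin, Fbl, had 1.42 ± 0.07, Mrto4 2.06 ± 0.08 and Nop56 1.10 ± 0.08. In polyamine and nucleotide metabolism, the tetrahydrobiopterin enzyme Gch1 had 2.80 ± 0.17, spermidine synthase, Srm, 1.65 ± 0.08, and the inducible nitric oxide synthase Nos2 -0.52 ± 0.11.

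Glycolysis was higher in part. Slc16a3, the lactate exporter, was at 12.82 in the proximal, 11.77 in the distal and 7.85 in the contralateral nerve, a ratio of 4.97 ± 0.09. The hexokinases diverged, with at least 4.71 for the myeloid Hk3, 2.44 ± 0.41 for Hk2 and -0.35 ± 0.08 for Hk1. Ldha had 1.48 ± 0.07 and Pkm 2.12 ± 0.11, while Ldhb had -1.49 ± 0.07, Aldoc -2.20 ± 0.11 and the glucose transporter Slc2a1 -0.45 ± 0.04. A second probe of Pkm gave 3.31. Targets of the hypoxia factor HIF had a median of 0.06, with 0.71 for Vegfa, 0.37 for Adm and -1.77 for Ndrg1. Muscle markers were high in the proximal array as well, and the part of muscle in the glycolytic values was not tested. In the distal array, where those markers were lower, Slc16a3 had 3.92 and Ldha 1.13. The 30 measured mitochondrial genes had a median of 0.24, and 0 were higher by 2-fold or more and 0 lower by as much.

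Glucocorticoid-responsive genes were lower more often than higher, and clock genes were mixed. Per1, which belongs to both groups, was at 13.82 in the proximal, 12.99 in the distal and 15.92 in the contralateral nerve, a ratio of -2.10 ± 0.07. Tsc22d3, which encodes the glucocorticoid-induced leucine zipper, had -1.57 ± 0.08, Klf9 -1.54 ± 0.08 and Zbtb16 -1.79 ± 0.49, while the chaperone Fkbp5 was -0.02 ± 0.08. In all 6 of 14 glucocorticoid targets were at least 2-fold lower and 1 higher. Clock genes had a median of -0.22. Of 15, 5 (33.3%) were lower by 2-fold or more and 2 (13.3%) higher, against 11.7% and 10.1% of all genes. The higher ones were the repressors Nfil3 at 1.76 ± 0.17 and Bhlhe40 at 1.10 ± 0.09. Clock output genes gave -1.26 ± 0.08 for Dbp, -1.37 ± 0.04 for Tef and -1.69 ± 0.10 for Nr1d1, and the core genes Bmal1 and Clock -0.18 and -0.22. The hours of collection are not given in the sources used here.

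Cell division genes were higher in the proximal stump, and those of mitosis less so than in the distal stump. Division proceeds from the licensing and copying of DNA in the G1 and S phases to chromosome segregation in G2 and M, and in uninjured adult nerve few cells divide. Promoters of many mitotic genes hold CCAAT boxes followed by the element TTTGAA, and those of many S phase genes the E2F element TTTNGCGC. In the 250 bases before the start, TTTGAA was in 16% of the 27457 promoters, 7 of 17 of the G2 and M group (41.2%) and 1 of 19 of the G1 and S group (5.26%). CCAAT was in 34.3% of all, 14 of 17 (82.4%) and 11 of 19 (57.9%), and TTTNGCGC in 1.11% of all, 1 of 17 (5.88%) and 6 of 19 (31.6%). The last 150 bases are shown for the mitotic kinase gene Cdk1 (chr20:19265143-19265292, forward strand), the cyclin B gene Ccnb2 (chr8:79981659-79981808, reverse strand) and the kinase subunit gene Cks2 (chr17:13727520-13727669, reverse strand), with the CCAAT and TTTGAA letters of either strand in capitals. The helicase subunit gene Mcm6 (chr13:42404353-42404502, reverse strand) has its overlapping matches to TTTNGCGC in capitals.
Cdk1: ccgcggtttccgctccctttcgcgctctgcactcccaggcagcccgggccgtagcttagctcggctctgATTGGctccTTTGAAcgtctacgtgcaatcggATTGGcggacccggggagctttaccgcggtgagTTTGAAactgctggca
Ccnb2: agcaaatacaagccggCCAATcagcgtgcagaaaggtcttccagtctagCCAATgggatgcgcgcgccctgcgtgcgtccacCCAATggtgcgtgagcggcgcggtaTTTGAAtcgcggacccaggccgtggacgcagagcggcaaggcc
Cks2: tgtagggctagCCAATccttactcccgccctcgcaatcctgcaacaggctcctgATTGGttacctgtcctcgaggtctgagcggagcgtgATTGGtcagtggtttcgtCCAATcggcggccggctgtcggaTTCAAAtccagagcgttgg
Mcm6: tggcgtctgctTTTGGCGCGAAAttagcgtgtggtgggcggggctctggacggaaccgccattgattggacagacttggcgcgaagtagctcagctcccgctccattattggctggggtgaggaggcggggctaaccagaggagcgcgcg

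In G1 and S, 23 of 27 measured genes passed 2-fold upward and 0 downward, a median of 1.88 proximally and 2.25 distally. The ribonucleotide reductase subunit Rrm2, which supplies DNA precursors, was at 12.98 in the proximal, 13.28 in the distal and 8.44 in the contralateral nerve, a ratio of 4.54 ± 0.09. A second probe of Rrm2 gave 3.03. Cyclin E, Ccne1, was at 10.34 in the proximal, 10.39 in the distal and 6.22 in the contralateral nerve, a ratio of 4.12 ± 0.17. The thymidine kinase Tk1 had 4.26 ± 0.41, and the helicase subunits Mcm6 and Mcm3 3.26 and 3.24. The D cyclins Ccnd1 and Ccnd2, which respond to growth factors, had smaller ratios of 0.80 ± 0.08 and 0.18 ± 0.08.

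In G2 and M, 21 of 23 were higher by 2-fold or more and 0 lower by as much, a median of 2.44 proximally and 3.30 distally. Cyclin A, Ccna2, was at 10.40 in the proximal, 11.05 in the distal and 5.79 in the contralateral nerve, a ratio of 4.62 ± 0.41. Cdk1 was at 11.66 in the proximal, 12.44 in the distal and 8.02 in the contralateral nerve, a ratio of 3.64 ± 0.04. For both the distal stump was highest and the contralateral nerve lowest. Cks2 had 3.37 ± 0.17, Ccnb2 at least 3.35, the spindle motor Kif11 3.30 ± 0.18 and the checkpoint kinase Ttk 4.18 ± 0.90. Cdc20, an activator of the anaphase-promoting complex, was -0.10 ± 0.09. In the direct comparison of the stumps, the 23 measured G2 and M genes had a median of -0.78 proximal over distal, and 23 of them lay below 0. The median over all genes was -0.021 there. The G1 and S genes had a median of -0.30. Inhibitors of division were split: Cdkn1b and Cdkn1c, which hold cells in quiescence, had -1.89 ± 0.04 and -1.66 ± 0.08, and the damage-induced Cdkn1a -0.26 ± 0.07.

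**Figure D4:**
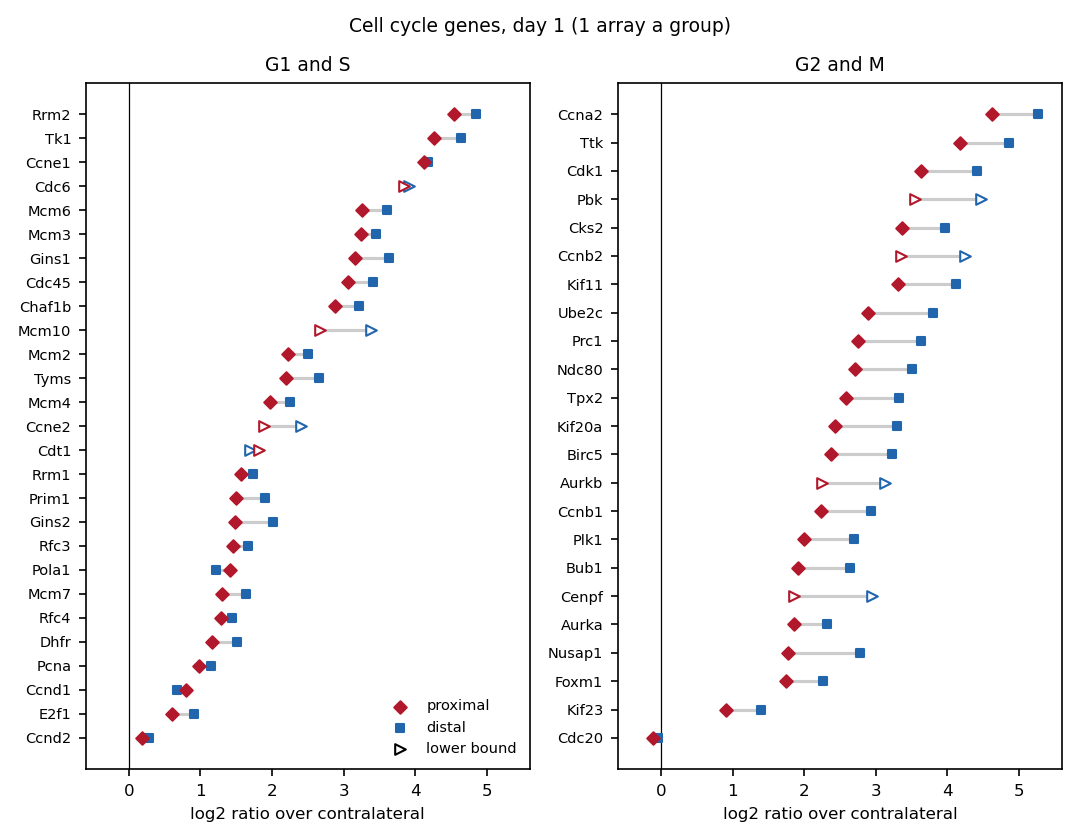
Log2 ratio to the contralateral nerve of the 27 G1 and S and 23 G2 and M genes measured, diamonds for the proximal and squares for the distal stump, with open triangles for lower limits. Most genes lie above 1 in both stumps, and the distal value is above the proximal value for each G2 and M gene shown.

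Myelin genes were lower in the proximal stump, by less than in the distal stump. Of 38 measured, 22 were at least 2-fold lower and 0 higher, with a median of -1.34 proximally and -1.92 distally. Periaxin, Prx, a scaffold protein of myelinating Schwann cells, was at 12.47 in the proximal, 11.89 in the distal and 13.95 in the contralateral nerve, a ratio of -1.48 ± 0.07. Mag, which faces the axon, was at 10.84 in the proximal, 10.13 in the distal and 12.22 in the contralateral nerve, a ratio of -1.38 ± 0.12. For both, the proximal value lay between the contralateral and the distal value. The tight-junction claudin Cldn19 had -1.75 ± 0.07. Mbp was -0.14 ± 0.07 and Pmp22 -0.90 ± 0.07. Gldn, a Schwann cell ligand that assembles nodes of Ranvier, was 0.67 ± 0.07 proximally and -0.15 distally. The enzymes of myelin lipids followed, with -2.24 ± 0.03 for the fatty acid hydroxylase Fa2h, -2.02 ± 0.08 for the galactosyltransferase Ugt8 and -2.06 ± 0.08 for the elongase Elovl6, while ceramide synthase Cers2 was -0.47 ± 0.08. Lgi4, a Schwann cell signal required for myelination, had -1.19 ± 0.08 proximally and -2.78 distally.

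Genes of cholesterol synthesis, on which myelin depends, had a median of -0.72; 7 of 26 genes were at least 2-fold lower and 1 higher. Hmgcs1, an early synthase of the pathway, was at 14.84 in the proximal, 14.33 in the distal and 16.69 in the contralateral nerve, a ratio of -1.85 ± 0.07. The later enzymes Idi1 and Nsdhl had -1.35 ± 0.07 and -1.17 ± 0.08. Srebf2, a regulator of the pathway, was -0.33 ± 0.08. CCAAT was in 15 of 18 promoters of this group (83.3%), against 34.3% of all 27457. It is shown in capitals, on either strand, for Nsdhl (chrX:155817210-155817359, forward strand), which holds 4 copies, and Hmgcs1 (chr2:53382154-53382303, forward strand).
Nsdhl: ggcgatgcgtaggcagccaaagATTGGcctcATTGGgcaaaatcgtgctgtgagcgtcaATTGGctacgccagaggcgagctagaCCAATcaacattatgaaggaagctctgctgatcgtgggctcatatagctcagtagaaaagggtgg
Hmgcs1: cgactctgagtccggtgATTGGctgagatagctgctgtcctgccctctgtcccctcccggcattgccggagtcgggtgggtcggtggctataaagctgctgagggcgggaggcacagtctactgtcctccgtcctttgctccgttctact

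Transcription factors of Schwann cells had small ratios. Egr2 and Sox10, which drive myelination together, had -0.47 ± 0.04 and -0.94 ± 0.08, Pou3f1 -0.27 ± 0.09 and Sox2, a factor of immature cells, -0.47 ± 0.08. Olig1 had -1.22 ± 0.06 and Id4 -1.47 ± 0.10. Repair-associated genes were mixed, with 7 of 21 higher by 2-fold or more and 4 lower by as much. Ngfr, the low-affinity neurotrophin receptor of repair Schwann cells, was at 9.62 in the proximal, 10.03 in the distal and 8.43 in the contralateral nerve, a ratio of 1.18 ± 0.04. Nrg1, whose Schwann cell form acts in autocrine repair, had at least 3.44. Gdnf, which supports motor axons, was at 5.62 in the proximal, 7.69 in the distal and 3.80 (not well above background) in the contralateral nerve, so its ratio was at least 1.75 proximally and at least 3.81 distally. The EGF-family ligand Btc was at 4.55 in the proximal, 6.49 in the distal and 4.04 (not well above background) in the contralateral nerve, and Igfbp2, which binds insulin-like growth factors, at 5.15 in the proximal, 8.02 in the distal and 5.32 in the contralateral nerve. For Gdnf, Btc and Igfbp2 the distal stump was the highest. Shh had 1.72 ± 0.42, while Dhh, the hedgehog ligand of myelinating Schwann cells, had -0.68 ± 0.08 and its targets Ptch1 and Gli1 -1.71 and -1.56. Ucn2, a peptide of the corticotropin-releasing family, was at 11.50 in the proximal, 12.56 in the distal and 7.31 in the contralateral nerve, a ratio of 4.20 ± 0.17.

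Neurotrophic and growth factor signals were lower more often than higher. Of 27, 9 (33.3%) were at least 2-fold lower and 3 (11.1%) higher, against 11.7% and 10.1% of all genes. Ntf3 had -2.26 ± 0.33 and its receptor Ntrk3 -1.44 ± 0.08, neurturin, Nrtn, -1.58 ± 0.08, and Mdk -1.30 ± 0.08. The receptors Ret and Gfra2 had -1.93 and -1.07, and for each of these a second probe had the opposite sign. Bdnf was not well above background on either side. In the TGF-beta superfamily, the activin subunit Inhba was at 12.54 in the proximal, 10.77 in the distal and 8.71 in the contralateral nerve, a ratio of 3.82 ± 0.08 and 1.77 ± 0.06 over the distal stump. Its binding inhibitor Fst had -1.57 ± 0.08, Tgfb1 0.74 ± 0.05, Tgfb3 -1.27 ± 0.08, and the bone morphogenetic proteins Bmp4, Bmp6 and Bmp7 -1.36, -1.46 and -1.64. WNT genes had a median of -0.67, with 0 of 27 past 2-fold upward and 10 downward; the ligands Wnt10b and Wnt16 had -2.69 and -1.28, the enhancer Rspo3 -1.82 and the target Axin2 -1.04. In retinoid metabolism, the storage enzyme Lrat, the uptake receptor Stra6 and the dehydrogenase Rdh10 had 1.97, 1.84 and 1.67, while the synthetic Aldh1a1 had -1.95 ± 0.08 and the degrading Cyp26b1 -2.81 ± 0.05. A second probe of Lrat gave 1.03. Igfbp5 and Igfbp6 had -2.31 ± 0.10 and -1.57 ± 0.07, and Igf1 was -0.22 ± 0.07. The EGF-family ligand Areg had at least 2.07.

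Genes of injured neurons and of axon guidance were lower by 2-fold or more in 31.6% and 34.6%, against 11.7% of all genes measured. The shares higher by as much were 15.8% and 3.85%, against 10.1% with muscle genes aside. Of 19 genes of neuronal injury and axons, 6 were lower by 2-fold or more and 3 higher, namely Npy, Ucn2 and Cck (1.12, 4.20 and 1.15). Galanin, Gal, a peptide that injured neurons make, was at 7.95 in the proximal, 7.12 in the distal and 10.0 in the contralateral nerve, a ratio of -2.04 ± 0.05. Stmn2 and Prph, which axons carry as messenger RNA, had -1.04 and -0.93, the calcitonin gene-related peptide gene Calca -0.77 ± 0.14 proximally and -1.89 distally, and Gap43 -0.27 ± 0.09. Dbh, which makes noradrenaline, was at 4.24 in the proximal, 7.38 in the distal and 6.99 in the contralateral nerve, and Vip at 4.25 in the proximal, 6.50 in the distal and 6.40 in the contralateral nerve. For both the proximal value was the lowest. Npy had 1.12 ± 0.03, and Th, the first enzyme of the same pathway as Dbh, 0.02 ± 0.08. Among guidance cues 9 of 26 were at least 2-fold lower, such as Sema3b at -1.71 ± 0.07, Sema5a at -1.85 ± 0.08 and Slit2 at -1.01 ± 0.08, and 1 higher, Sema7a at 1.24 ± 0.18. Potassium channels of the juxtaparanode, Kcna1 and Kcna2, had -1.46 and -1.91, the inward rectifier Kcnj13 -2.39 ± 0.08 and the calcium-activated Kcnn4 of immune cells 3.03 ± 0.41.

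Connective tissue genes were lower more often than higher. Of 48 fibroblast and matrix genes, 21 were at least 2-fold lower and 4 higher. Col1a1 and Col3a1 had -1.36 ± 0.07 and -1.30 ± 0.07, decorin, Dcn, -1.23 ± 0.03, and the small proteoglycans Ogn and Omd -2.18 ± 0.07 and -2.91 ± 0.08. Cytl1 was at 7.71 in the proximal, 7.29 in the distal and 11.23 in the contralateral nerve, a ratio of -3.51 ± 0.10. Pi16 and Dpp4, which mark stem-like fibroblasts, had -1.97 and -1.58, while Pdgfra was 0.03 ± 0.03 and Tnc, a matrix protein of wounds, 0.85 ± 0.09. Perineurial and barrier genes had a median of -1.35, with 9 of 15 at least 2-fold lower and 0 higher. Cldn1, the claudin of the perineurium, was at 11.60 in the proximal, 10.94 in the distal and 13.68 in the contralateral nerve, a ratio of -2.08 ± 0.03. Krt19 had -2.38 ± 0.08, Itgb4 -1.73 ± 0.07 and the scaffold Tjp1 -1.49 ± 0.04. In vessels, the tip cell ligand Apln had 1.85 ± 0.04, endoglin, Eng, 1.60 ± 0.09, and the receptor Flt1 1.32 ± 0.18, against 0.08 ± 0.07 for Pecam1 and -0.33 ± 0.08 for Kdr, and the mural genes Cspg4 and Myh11 had -1.47 and -1.47. Fat genes were lower by more than in the distal stump: 20 of 27 were at least 2-fold lower, with a median of -1.46 proximally and -0.92 distally. Pck1, which makes glycerol for fat storage, was at 4.65 in the proximal, 5.24 in the distal and 8.87 in the contralateral nerve, a ratio of -4.22 ± 0.29. Adipoq had -1.38 ± 0.07 proximally and -0.69 distally, Pparg -1.56 ± 0.08 proximally and -0.85 distally and the desaturase Scd -2.57 ± 0.08 proximally and -1.71 distally. The 2 fat markers in the table had a median level of 10.71 in the proximal, 11.40 in the distal and 12.18 in the contralateral nerve, and the part of fat collected with each nerve was not tested.

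The stumps themselves were alike in most genes. The rank correlation over probes was 0.992 between proximal and distal, 0.958 between proximal and contralateral and 0.951 between distal and contralateral; these are across probes, which are not independent, and describe 3 arrays. Outside the muscle list, the largest proximal excess that was not a limit was 2.93 ± 0.39 for Lix1. It was followed by 2.89 ± 0.09 for the small GTPase Rrad, 2.80 ± 0.11 for Mmd2, and 2.78 ± 0.39 for the junction protein Ajap1. Trh, the gene of thyrotropin-releasing hormone, was at 9.15 in the proximal, 6.59 in the distal and 1.70 (not well above background) in the contralateral nerve, an excess of 2.55 ± 0.09. Rrad, Myh6, Scn4b, Apobec2 and Rbfox1 are also expressed by muscle, whose markers were higher in the proximal than in the distal array. Cxcl2, Il6, Il1r2, Arg1 and Inhba, given above, were among the inflammatory genes at least 2-fold higher in the proximal than in the distal stump. Rxrg, a retinoid X receptor, was at 10.31 in the proximal, 8.25 in the distal and 11.40 in the contralateral nerve, an excess of 2.06 ± 0.11, and the mechanosensitive channel Kcnk2 had 1.71 ± 0.11. For these the proximal level was the nearer to the contralateral nerve. In the opposite direction Dbh had -3.15 ± 0.30, the lipoxygenase Alox12e -2.96 ± 0.12, Igfbp2 -2.87 ± 0.19, Retnlg -2.60 ± 0.06, and the aldo-keto reductase Akr1c3 -2.43 ± 0.41. Ccr3 had -2.43 ± 0.19, Vip -2.25 ± 0.29 and Gdnf -2.07 ± 0.19. With 1 array for each stump, no spread between animals stands behind these differences, and their number past 2-fold falls under normexp and quantile normalization, as given above.

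**Figure D5:**
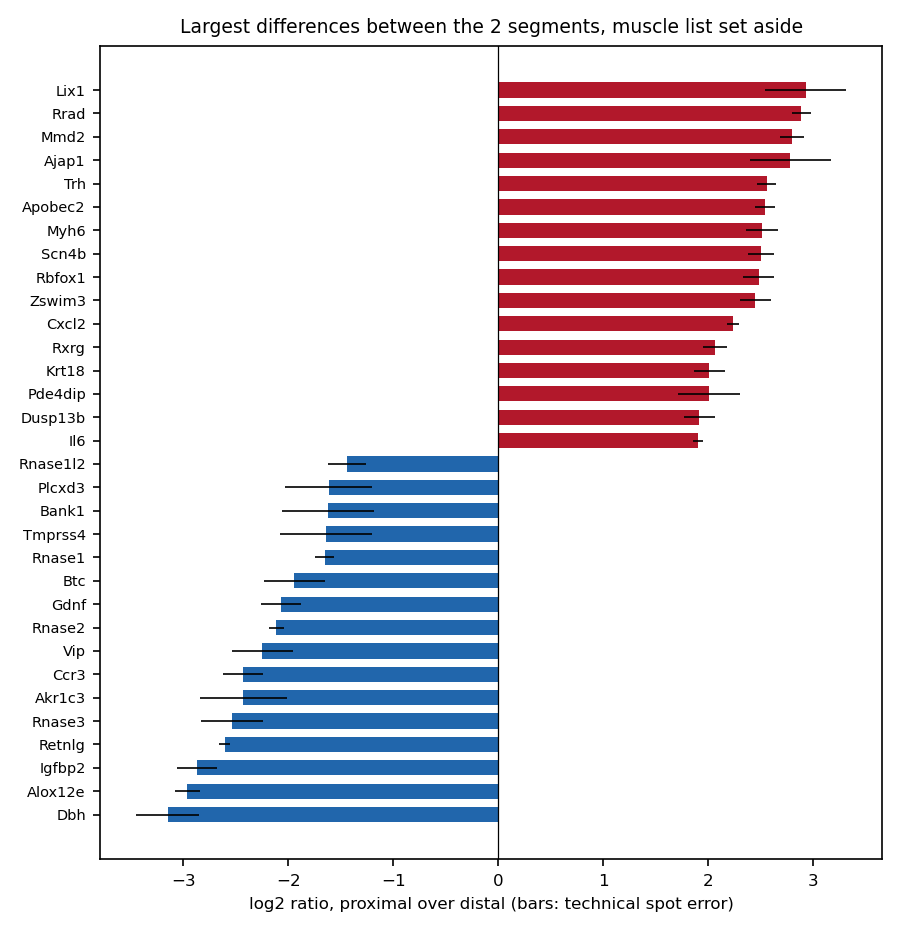
The 16 genes with the largest log2 ratio of the proximal over the distal stump in each direction, muscle list aside and limits left out, with the technical spot error as bars. The higher side runs from Il6 at 1.90 to Lix1 at 2.93, and the lower side reaches -3.15 at Dbh.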

How the data were processed

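Total RNA of each sample, labelled with Cy3, was hybridised to 1 one-colour Agilent array, and all 8 arrays lay on 1 slide. The authors' deposited value table holds log2 values with a median of 8.03 in every column. How it was normalized and which probes were kept are not given in the sources used here; its 24894 probes are those of 30367 well above background on at least 1 array. Deposited scanner files of Feature Extraction (version 10.7.3.1 per the file headers, 10.5 per the submitters' processing notes) gave spot intensity, background flags and repeat spots. A scan was tied to each column by rank: the rank correlation rounds to 1.0 with the best scan and is 0.95831 to 0.99295 with the next. For 7 columns that scan is recorded under another sample (rank correlation with the recorded scan 0.80227 to 0.89986 for these), and only the distal column matched its own. Column headings were used throughout.

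Probes were named through the accession in the scanner files and the RefSeq table of GRCr8; 9681 table probes had no match and 44 control rows were left out. A probe counts as well above background when more than 50% of its spots carry that flag. A limit sets the dim side to the lowest value among probes well above background in its column (3.02 proximal, 3.26 distal, 3.88 contralateral) or to its own value where that is higher. The spot error pools repeat spots in 10 level bins. With 1 array a group there is no test; 2-fold differences are counts only, and arrays of 3 pooled animals hide the spread between animals. The members and gene lists were chosen with earlier results of these data known. Genes named are the highest and lowest ratios, list members with large ratios or a stated role, and the largest differences between stumps. The few others, named after their values were seen, are Lgi4, Kcnk2, Scn3b, Sostdc1 and Sparcl1. Some genes are not reported here. The ratio and calling steps were run on simulated data with low noise, where all changed probes were recovered. The planted changes were beyond 2-fold and left out the dimmest probes. That run therefore cannot speak for dim probes, normalization or the spread between animals. Alternatives used the scanner intensity with scaling to the 75th percentile, or normexp (limma 3.58.1, R 4.3.3) with an offset of 50 and quantile normalization, other filters, all probes, the mean of probes, the scans as recorded, and muscle genes kept. Python 3.11.15, pandas 2.3.3, numpy 2.4.6 and scipy 1.17.1 were used. Promoter sequences are RefSeq's; 9858 of the 12068 measured genes have an entry.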

Additional observations from a re-analysis of the deposited data

Results flagged for a closer look

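For 5 genes the proximal and the distal stump lay at least 2-fold from the contralateral nerve on opposite sides. Abra, a muscle activator of actin-dependent transcription, had a log2 ratio of 1.42 proximally and -1.68 distally. Casq1, the calcium store protein of fast muscle, had 1.20 and -1.52. Tnmd, a tendon and ligament protein, had 1.07 proximally and at most -1.55 distally, where it was not well above background. Spag11a, a defensin-like gene known from the epididymis, had 1.14 and at most -1.61. Alox12e, an epidermal-type lipoxygenase, went the other way, with -1.19 proximally and 1.77 distally. The difference between stumps was not tested, since each stump is 1 array, and both ratios share the contralateral array. Abra and Casq1 are members of the muscle list, whose median was 1.18 proximally and 0.04 distally.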

How the results depend on the processing

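The choice that decides the directions is which array is which sample. Under the headings, neuron markers had median log2 levels of 12.448 and 13.767 in the cord columns and 4.688 to 5.528 in the nerve columns. Macrophage markers had 11.077 to 11.644 in the nerve columns and 4.624 to 5.153 in those of cultured Schwann cells. The scans recorded under the proximal and contralateral samples had rank correlations of 0.86266 and 0.89986 with those columns. Between the nerve columns themselves the rank correlation was 0.951 to 0.992. Those recorded scans therefore belong, by rank, to columns headed as cord or cultured Schwann cells. Under the headings, the ratios from the recorded scans given below do not compare nerve with nerve. Beyond these levels and correlations, which assignment is right was not tested. When the scans recorded under each sample were used in place of the column headings, 2063 genes were at least 2-fold higher and 3154 lower, 29 gene groups in place of 11 had a median at least 2-fold from 0, and of the 28 groups with a median at least 0.5 from 0, 14 kept their sign. Of 254 named genes with a 2-fold difference that could be computed, 137 changed sign under the recorded scans. Under the other alternatives none of them and none of the 28 groups changed sign. With normexp and quantile normalization 770 genes were at least 2-fold higher and 781 lower, and 43 were higher and 26 lower in the proximal than in the distal stump; 220 of 273 named genes moved by more than their spot error. With scaling to the 75th percentile, 80 genes in place of 131 were at least 2-fold lower in the proximal than in the distal stump. The cause of these shifts was not tested. The other counts stayed within 1.5 times. A value of a dim probe is limited by its signal over background. No paired analysis was possible because each group has 1 array, and for the same reason no array could be left out.

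The log2 ratios under the recorded scans for genes that were higher by the headings and changed sign were: Abra -0.64, Apln -5.22, Apobec2 -5.61, Arg1 -3.08, Atp2a1 -5.25, Bcl3 -1.48, Bhlhe40 -0.63, Birc3 -3.15, Blnk -6.13, C3ar1 -5.05, C5ar1 -5.70, C5ar2 -2.25, Camp -4.57, Casq1 -1.46, Cck -6.07, Ccl12 -4.04, Ccl20 -0.70, Ccl3 -6.11, Ccl7 -0.84, Ccr6 -2.90, Cd14 -4.08, Cd163 -4.59, Cd2 -0.38, Cd3d -0.38, Cd8a -3.94, Cfb -7.34, Ciita -1.37, Ckm -3.83, Clec4a2 -4.64, Csf3r -3.93, Cxcl14 -4.67, Cxcl2 -1.63, Cxcr4 -3.86, Dio3 -3.64, Eng -5.52, Fcgr1a -9.26, Flt1 -2.47, Gch1 -2.51, Gfap -5.26, Hk2 -0.51, Hk3 -5.12, Hmox1 -1.21, Ifit3 -2.99, Il11 -0.71, Il18 -5.22, Il1a -4.19, Il1b -4.43, Il1r2 -1.32, Il1rn -2.64, Irf8 -3.0, Isg15 -5.78, Itgal -3.38, Itgam -6.02, Itgb2 -6.68, Junb -0.031, Kcnn4 -4.60, Lilrb4 -5.59, Lix1 -4.89, Lrat -1.43, Mmp12 -5.10, Mmp9 -1.21, Msr1 -4.35, Mt1 -3.68, Mt2A -7.12, Myh4 -1.34, Nfil3 -0.90, Nfkbie -0.65, Nlrp3 -2.41, Npy -3.25, Olr1 -0.96, Osm -0.89, Osmr -1.26, Pglyrp1 -0.39, Pim1 -0.99, Pla2g7 -7.50, Plau -0.55, Ptger2 -2.40, Ptgfr -0.27, Ptgis -4.29, Ptgs2 -1.31, Ptx3 -3.92, RT1-DMa -4.46, RT1-DMb -5.14, Rbfox1 -5.58, Reg3g -2.92, Retnlg -2.78, Rnase6 -0.58, Rrad -1.65, S100a8 -6.95, S100a9 -7.11, Scn3b -6.55, Scn4b -7.62, Sele -0.55, Sema7a -2.63, Serpina3n -6.79, Shh -0.45, Slc16a3 -2.65, Socs3 -0.71, Stra6 -3.25, Tbxas1 -8.15, Timp1 -0.13, Tlr2 -8.21, Tlr6 -5.54, Tnf -4.31, Tnnc2 -5.50, Trem1 -2.31, Trh -5.50. For genes that were lower by the headings they were: Ang 0.62, Ang2 0.55, Atf3 1.21, Col1a1 3.11, Cyp26b1 3.22, Dbh 0.80, Elovl6 4.05, F3 1.95, Fst 5.80, Gfra2 3.07, Gzmb 1.15, Hmgcs1 0.78, Id4 0.26, Idi1 2.10, Igfbp5 2.40, Jam3 1.17, Klf9 0.39, Lgi4 0.26, Nr1d1 0.77, Nsdhl 1.07, Per1 0.53, Pparg 1.11, Rnase4 1.12, Rxrg 0.25, Sema3b 1.56, Slit2 1.33, Sod3 3.30, Sostdc1 0.39, Tgfb3 0.061, Timp3 3.27. Group medians that changed sign were -0.99 for STAT3 targets, -1.91 for chemokine receptor, -5.12 for monocyte macrophage, -3.08 for neutrophil, -1.30 for skeletal muscle.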

Other observations

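Several of the largest differences belong to genes outside the described groups. Dio3, the deiodinase that inactivates thyroid hormone, was at 10.76 in the proximal, 9.71 in the distal and 5.48 in the contralateral nerve, a log2 ratio of 5.28 ± 0.41. Nppb, the B-type natriuretic peptide, was at 9.81 in the proximal, 8.60 in the distal and 3.43 (not well above background) in the contralateral nerve, a ratio of at least 5.93. Reg3g, a secreted lectin induced in injured epithelia, was at 9.54 in the proximal, 9.24 in the distal and 2.38 (not well above background) in the contralateral nerve, a ratio of at least 5.67. All 3 were high in both stumps. Ptprn, a protein of secretory granules, had 4.23 ± 0.41, and the myeloid receptors Clec4a2 and Lilrb4 had 5.44 ± 0.24 and 4.81 ± 0.17. The secreted carboxylesterase Ces1c was at least 4.77 proximally and at least 3.33 distally. Scn3b, a sodium channel beta subunit, was at 11.40 in the proximal, 9.75 in the distal and 8.87 in the contralateral nerve, an excess of 1.65 ± 0.06 over the distal stump.

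Among the lowest, Cyp2e1, a cytochrome that oxidises small molecules, was at 2.45 (not well above background) in the proximal, 3.02 (not well above background) in the distal and 7.87 in the contralateral nerve, a ratio of at most -4.85. The orphan receptor Mrgprg had -4.32 ± 0.29, the neuronal leucine-rich repeat protein Lrrn1 -4.17 ± 0.29 and the peptidase Folh1 -3.15 ± 0.17. The abundant secreted proteins Sostdc1 and Sparcl1 were at 12.63 in the proximal, 12.24 in the distal and 15.52 in the contralateral nerve, and at 12.52 in the proximal, 12.13 in the distal and 15.11 in the contralateral nerve.

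Cultured unstimulated Schwann cells, 1 array, showed some of these genes and not others. The alarmins S100a8 and S100a9 were at log2 levels of 1.79 and 2.47 there, Cxcl2 at 1.69, Ptx3 at 2.29, Trh at 1.73 and Rnase3 at 1.81. The division genes Ccna2 and Cdk1 were at 12.36 and 14.32, Fosl1 at 9.62, Il1rl1 at 11.62, Gdnf at 7.45 and Ucn2 at 10.89. Ucn2 was measured by 2 probes, which gave proximal ratios of 4.20 and 8.30.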
